A study of Mus musculus with 8 samples.

Results

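The core genes of the circadian clock were described in cortex of mouse embryos labelled WT or ErbB4-/- (ErbB4 is a receptor tyrosine kinase for neuregulins). They are 10 genes, Npas2, Clock, Arntl, Per1, Per2, Per3, Cry1, Cry2, Nr1d1 and Dbp, found by symbol among the 23284 gene symbols of the count files. The group was chosen by the Npas2 values of these same libraries, which were higher in those labelled ErbB4-/-. That difference is therefore given as a description without a test. All 10 genes passed the filter on low counts, which kept 14696 genes.

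RNA of cortex at E15.5 was sequenced in 4 WT and 4 ErbB4-/- libraries of strain C57BL/6. The labels give no treatment for either genotype, and the meninges and ganglionic eminences had been cut away. The ErbB4-/- mice carry a germline loss of ErbB4, with ErbB4 put back in the heart by a transgene under the α-MHC promoter, since embryos without it die early. Counts of Erbb4 were not lower in the libraries labelled ErbB4-/-, as given below. The WT and ErbB4-/- lines were each bred as homozygotes, so no WT embryo here is stated to be a littermate of an ErbB4-/- embryo. The hour of dissection, which matters for clock genes, is not given in the sources used here. Nothing states that the replicates came from separate litters, so errors measure the spread between these libraries only. The comparison of ErbB4-/- with WT cortex asks which genes depend on ErbB4 during cortical development.

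The circadian clock is a loop of transcription factors with a period of about a day. CLOCK, or its close relative NPAS2, pairs with BMAL1, the product of Arntl, and the pair activates genes with E-boxes, among them the Per, Cry, Nr1d1 and Dbp genes. PER and CRY proteins then repress CLOCK and NPAS2 with BMAL1. NR1D1 (REV-ERBα) represses Arntl and other genes through ROR elements, and DBP activates genes through D-boxes. NPAS2 is known for its expression in the forebrain, where it can take the place of CLOCK.

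The promoter stretches that hold such elements are shown because the loop acts through them. The RefSeq promoter table (GRCm38.p6, 250 bases before to 50 after each start) held 9 of the 10 genes, in 13 windows; Per2 was not matched. Both strands were searched for the E-box CACGTG, the E'-box CACGTT, the D-box TTATGTAA or TTATGCAA and the core of the ROR element, AGGTCA. None of these motifs overlaps another in the stretches printed. Capitals mark the matches, and each stretch is written on the strand of its gene:
Per1 (chr11:69098763-69098837, plus strand): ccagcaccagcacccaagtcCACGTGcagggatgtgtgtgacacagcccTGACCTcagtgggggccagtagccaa
Per1 (chr11:69098905-69098952, plus strand): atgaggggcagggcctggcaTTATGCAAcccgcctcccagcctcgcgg
Per3 (chr4:151044796-151044890, minus strand): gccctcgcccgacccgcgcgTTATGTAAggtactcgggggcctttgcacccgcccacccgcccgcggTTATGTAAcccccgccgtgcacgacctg
Cry1 (chr10:85185089-85185153, minus strand): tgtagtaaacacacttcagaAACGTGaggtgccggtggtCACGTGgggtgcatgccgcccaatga
Cry2 (chr2:92434210-92434255, minus strand): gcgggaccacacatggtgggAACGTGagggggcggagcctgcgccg
Nr1d1 (chr11:98775380-98775425, minus strand): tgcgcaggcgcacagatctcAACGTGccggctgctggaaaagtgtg
Arntl (chr7:113207522-113207560, plus strand): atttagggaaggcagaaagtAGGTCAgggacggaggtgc
Clock (chr5:76303596-76303641, minus strand): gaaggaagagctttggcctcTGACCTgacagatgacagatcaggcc

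The E-box was found in Per1 and Cry1, that is in 2 of 9 genes, and in 8.09% of the 27025 genes of the table. The E'-box was found in Cry1, Cry2 and Nr1d1, against 5.44% of all genes. The D-box was found in Per1 and, as 2 copies, in Per3, against 1.98%. The ROR core was found in Clock, Arntl and Per1, against 18.1%. By window rather than by gene, the 4 motifs were in 7.15%, 4.68%, 1.66% and 16.3% of 32851 promoter windows. Clock, Arntl and Per1 have several windows each, which gives them more bases to match. Dbp and Npas2 held none of these letters in their window. The Npas2 window is printed whole because the group was chosen by the values of this gene:
Npas2 (chr1:39194022-39194321, plus strand): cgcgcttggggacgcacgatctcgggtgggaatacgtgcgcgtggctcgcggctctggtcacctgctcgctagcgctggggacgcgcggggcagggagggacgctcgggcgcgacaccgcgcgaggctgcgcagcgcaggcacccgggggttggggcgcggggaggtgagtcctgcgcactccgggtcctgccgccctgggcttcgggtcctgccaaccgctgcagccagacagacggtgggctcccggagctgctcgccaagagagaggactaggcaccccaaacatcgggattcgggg

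Npas2 was higher in the libraries labelled ErbB4-/-. Its values are CPM, read counts scaled to a common library size after edgeR's TMM correction. WT replicates 1 to 4 had 2.18, 2.82, 2.03 and 1.97 CPM, from 61, 88, 78 and 69 reads. ErbB4-/- replicates 1 to 4 had 4.59, 3.73, 4.23 and 2.86 CPM, from 226, 130, 165 and 90 reads. All ErbB4-/- libraries lay above all WT libraries, but ErbB4-/- replicate 4 and WT replicate 2 were close together. The means were 3.85 ± 0.749 against 2.25 ± 0.393 CPM (SD, n = 4 each), a 1.72-fold difference or 0.79 on the log2 scale (SE 0.18). Of the 14696 genes tested, 84 had a log2 fold change at least this large, Npas2 included. The gene lies on chromosome 1 from 39250576 to 39420079 (mm9, plus strand), 28.7 Mb from the nearer end of Erbb4. No exon of another annotated gene overlaps its exons.

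The Npas2 value rested on few reads, and counting error alone gives a CV of 10.3% per library. The CV within genotypes was 18.5%, the highest of the 10 genes. With each library left out in turn, the log2 fold change stayed between 0.69 (without ErbB4-/- replicate 1) and 0.91 (without WT replicate 2). Xist, the RNA of the inactive X chromosome, had 983 to 1690 CPM in WT replicates 1 to 3. It had 3.48 CPM in WT replicate 4 and 2.70 to 3.82 CPM in ErbB4-/- libraries. Ddx3y, a gene of the Y chromosome, had 0.257 to 0.495 CPM in WT replicates 1 to 3 and 76.4 to 80.9 CPM in the other 5 libraries. The contrast of genotypes is thus largely also one of female with male libraries, and for Npas2 both parts cannot be told apart beyond what WT replicate 4 gives. Among the libraries with low Xist the log2 fold change was 0.98, a value that rests on that 1 WT library.

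**Figure D1:**
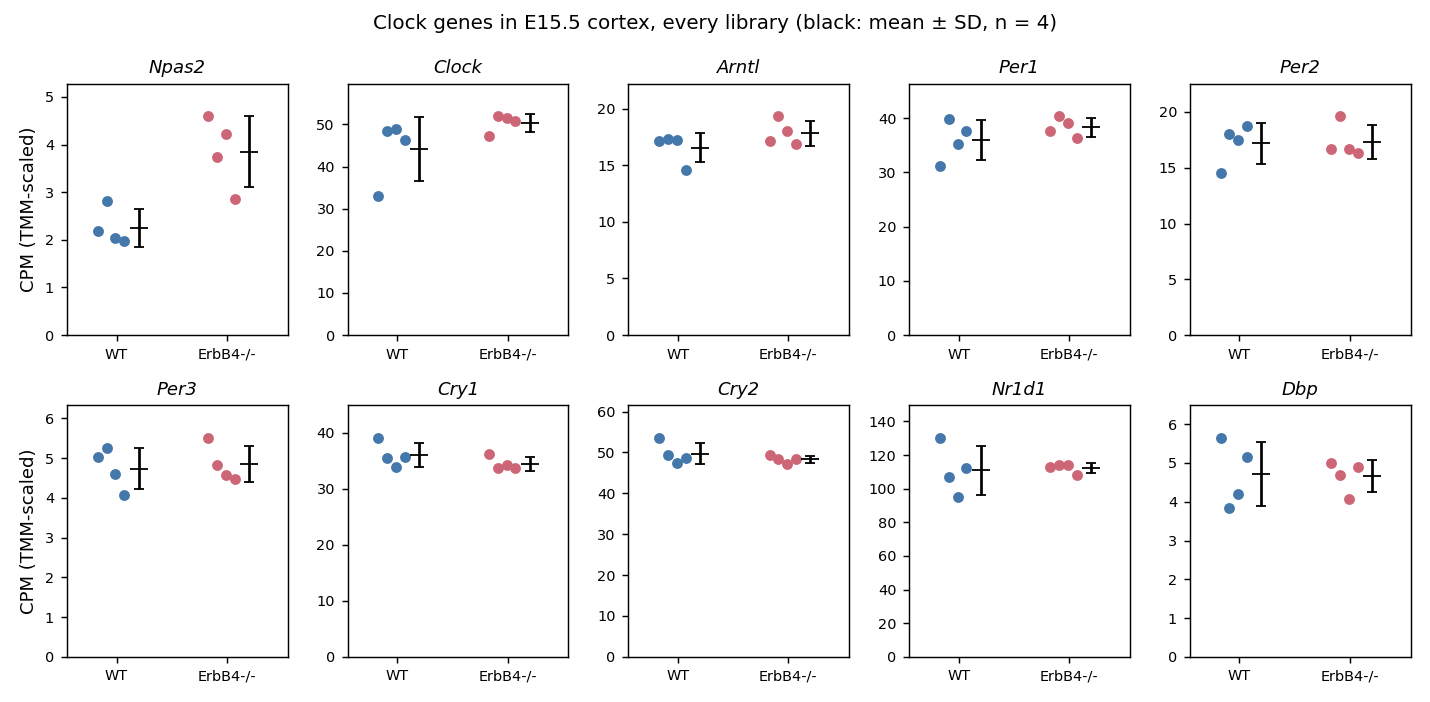
CPM of each of the 10 clock genes (vertical axes from 0) in the 4 WT (blue) and 4 ErbB4-/- (red) libraries, in the order of replicates 1 to 4, with the mean ± SD in black. In Npas2 the groups lie apart, at 1.97 to 2.82 and 2.86 to 4.59 CPM, and in the other 9 genes they overlap.

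Clock and Arntl encode the other activators of the loop. Clock had 33.0, 48.5, 49 and 46.2 CPM in WT replicates 1 to 4 and 47.2, 51.9, 51.6 and 50.9 CPM in ErbB4-/- replicates 1 to 4. The groups overlapped, and WT replicate 1 was far below the other libraries. Clock differed by 0.19 on the log2 scale (SE 0.11), with an edgeR adjusted p of 0.81, and by 0.071 (SE 0.052) without WT replicate 1. Arntl had 17.1, 17.3, 17.2 and 14.6 CPM in WT and 17.1, 19.3, 18.0 and 16.9 CPM in ErbB4-/- libraries, replicates 1 to 4. Here WT replicate 4 was the low library and the other 7 lay between 16.9 and 19.3 CPM. The log2 fold change of Arntl was 0.11 (SE 0.084, edgeR adjusted p = 0.811). Without WT replicate 4 it was 0.051, and against that library alone it was 0.29.

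Because NPAS2 and CLOCK can take the same place beside BMAL1, their levels were also set side by side per kilobase of exon. Npas2 made up 10.8%, 9.69%, 7.10% and 7.27% of the sum of Npas2 and Clock in WT replicates 1 to 4. In ErbB4-/- replicates 1 to 4 it made up 15.2%, 11.7%, 13.1% and 9.39%. The means were 12.4 ± 2.44% and 8.73 ± 1.84% (SD, n = 4 each). The groups overlapped in this share, since ErbB4-/- replicate 4 lay below WT replicates 1 and 2. The 10.8% of WT replicate 1 came with the lowest Clock value, 33.0 CPM. In that library the deviations went down with exonic length, as given below. Clock RNA per kilobase was 10.7 times that of Npas2 in WT and 7.10 times in ErbB4-/- libraries, from the group means. The share and this ratio hold the Npas2 values by which the group was chosen, so they are given as description only.

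The 3 Per genes encode repressors of the loop. Per1 had 31.2, 39.9, 35.2 and 37.6 CPM in WT and 37.6, 40.3, 39.0 and 36.3 CPM in ErbB4-/- libraries, with the lowest value again in WT replicate 1. On the log2 scale Per1 differed by 0.09 (SE 0.08). Per2 had 14.5, 18.0, 17.5 and 18.7 CPM in WT and 16.7, 19.6, 16.7 and 16.3 CPM in ErbB4-/- libraries. Per2 differed by 0.01 (SE 0.098) on the log2 scale, and this turned to -0.059 without WT replicate 1. Per2 lies on chromosome 1 like Npas2, from 93312561 to 93355907 (mm9), 24.2 Mb from Erbb4 on its other side. Per3 had 5.03, 5.26, 4.59 and 4.07 CPM in WT and 5.50, 4.83, 4.58 and 4.48 CPM in ErbB4-/- libraries, a difference of 0.04 on the log2 scale (SE 0.13). With edgeR the 3 genes had adjusted p-values of 0.827, 0.984 and 0.955, and their groups overlapped.

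The cryptochromes Cry1 and Cry2, the partners of the PER proteins, varied least. Cry1 had 39.0, 35.4, 33.9 and 35.7 CPM in WT and 36.2, 33.6, 34.2 and 33.6 CPM in ErbB4-/- libraries. Cry2 had 53.5, 49.3, 47.4 and 48.7 CPM in WT and 49.3, 48.5, 47.1 and 48.3 CPM in ErbB4-/- libraries. In both genes WT replicate 1 was the highest library and the other 7 overlapped closely. The log2 fold changes were -0.06 (SE 0.066) for Cry1 and -0.04 (SE 0.059) for Cry2, with an adjusted p of 0.839 and 0.875 from edgeR. The CV within genotypes was 4.94% and 3.97%, against a median of 9.60% over all tested genes. The 95% intervals of the log2 fold change, from edgeR's fit, were -0.21 to 0.08 and -0.17 to 0.09. A lincRNA gene on the other strand, D930015M05Rik, overlaps 4.67% of the exonic bases of Cry2, and it had at most 0.731 CPM in any library.

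Nr1d1 and Dbp are direct targets of the activators, and NR1D1 closes a second loop on Arntl. Nr1d1 was the most abundant of the 10 genes, with 130, 107, 94.8 and 112 CPM in WT and 113, 114, 114 and 108 CPM in ErbB4-/- libraries. Dbp had 5.64, 3.85, 4.2 and 5.16 CPM in WT and 4.99, 4.68, 4.07 and 4.89 CPM in ErbB4-/- libraries. In both genes the ErbB4-/- values fell within the range of the WT values. The log2 fold changes were 0.02 (SE 0.082, edgeR adjusted p = 0.96) and -0.01 (SE 0.14, edgeR adjusted p = 0.988). The 95% intervals were -0.16 to 0.20 for Nr1d1 and -0.33 to 0.30 for Dbp. WT replicate 1 was the highest library in both genes. Without that library the log2 fold changes were 0.11 (SE 0.056) for Nr1d1 and 0.082 (SE 0.14) for Dbp. The ratio of Nr1d1 to Arntl CPM, genes known to peak at opposite times of the cycle, was 7.60, 6.20, 5.51 and 7.64 in WT and 6.65, 5.92, 6.36 and 6.40 in ErbB4-/- libraries. The ErbB4-/- ratios thus also lay within the WT range.

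The libraries do not keep the strand, and both genes share exonic bases with a gene on the other strand. Thra, which encodes thyroid hormone receptor α, overlaps 8.42% of the exonic bases of Nr1d1, and Sphk2, a sphingosine kinase gene, overlaps 16.7% of those of Dbp. Reads of these stretches cannot be told apart, and how they were counted is not given in the sources used here. Thra had 687 ± 40.9 CPM in WT and 739 ± 40.0 CPM in ErbB4-/- libraries (SD, n = 4 each). Sphk2 had 42.9 ± 4.61 and 43.5 ± 0.823 CPM. The log2 fold changes were 0.10 and 0.02, with an adjusted p of 0.81 and 0.96 from edgeR.

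**Figure D2:**
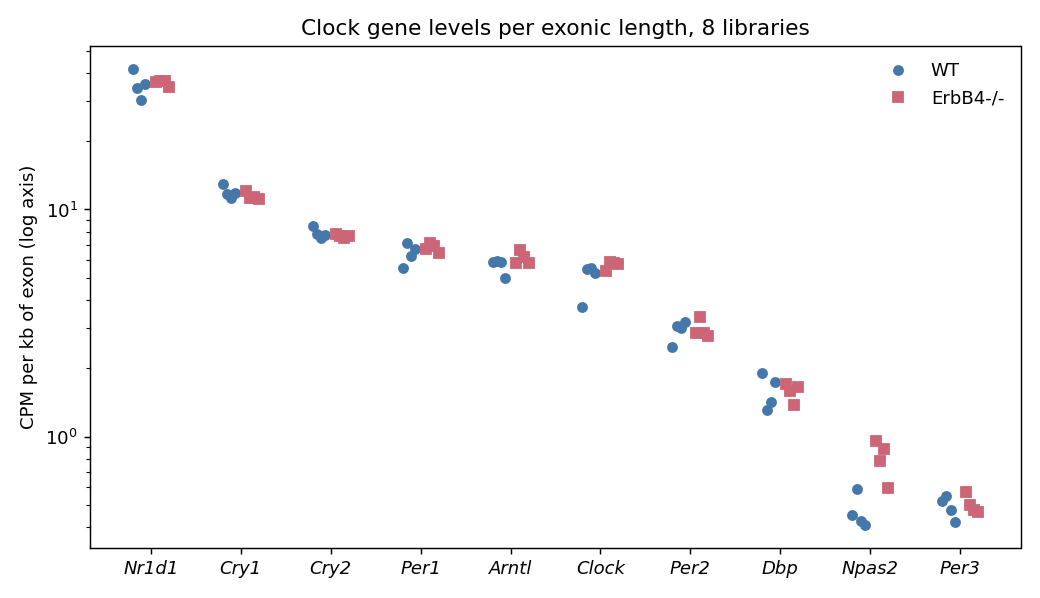
CPM per kilobase of exon (log axis) of the 10 clock genes in the WT (blue circles) and ErbB4-/- (red squares) libraries, ordered by mean level. Nr1d1 is highest at 30.3 to 41.6, and Npas2 and Per3 are lowest, at 0.41 to 0.958 and 0.424 to 0.573.

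Per kilobase of exon, where levels of different genes can be compared, Nr1d1 was first at a median of 36.0 CPM per kb over the 8 libraries. Cry1 followed at 11.5 and Cry2 at 7.68, and each of these 3 lay clear of the next in every library. Per1, Arntl and Clock came next at 6.68, 5.87 and 5.52 CPM per kb, and their ranges overlapped. Per2 at 2.93 and Dbp at 1.63 were again clear of their neighbours. Npas2 and Per3 were lowest at 0.593 and 0.490, with overlapping ranges. By group means Npas2 was below Per3 in WT (0.470 against 0.493 CPM per kb) and above it in ErbB4-/- libraries (0.804 against 0.505). Nr1d1 thus had 75.6 times the RNA of Npas2 per kilobase in WT and 44.8 times in ErbB4-/- libraries. Both comparisons restate the Npas2 values by which the group was chosen, so nothing further is read from them. These levels use the union of all annotated exons of each gene in mm9, which for Clock is 8.83 kb and for Npas2 4.79 kb.

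**Figure D3:**
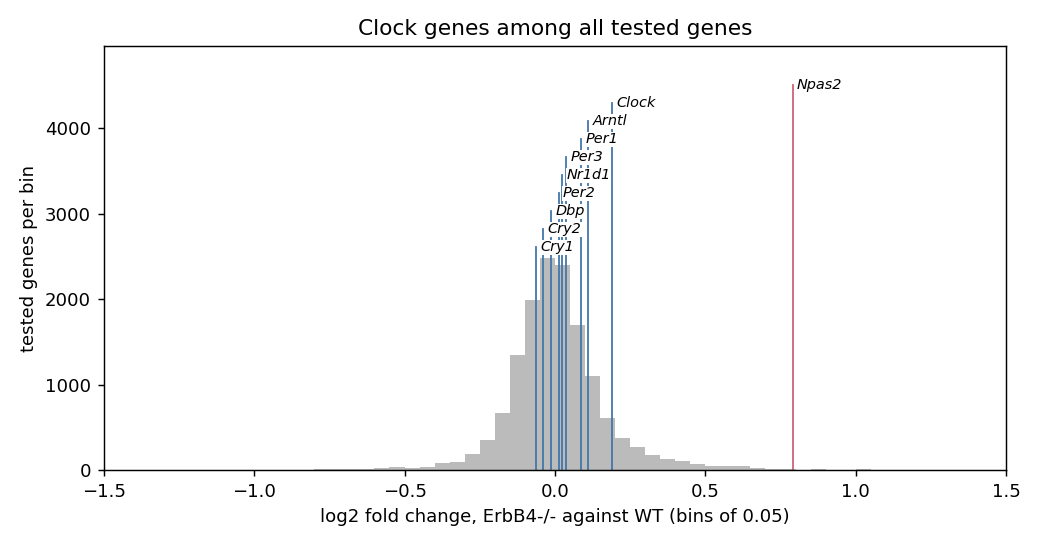
Histogram of the log2 fold changes of tested genes, ErbB4-/- against WT (horizontal axis, bins of 0.05, 14677 genes within 1.5 of 0), with the number of genes per bin on the vertical axis and a line for each clock gene. Npas2 (red) stands at 0.79 and the other 9 genes (blue) between -0.06 and 0.19.

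With edgeR, 0 of the 10 genes passed the threshold of 0.05 on the adjusted p, while the test called 4 genes or 0.0272% of those tested. At an unadjusted p under 0.05 there was 1 of the 10, Npas2, which chose the group, against 5.53% of all genes. Npas2 was also the only gene of the 10 with all ErbB4-/- libraries above all WT libraries, which 1.86% of all genes showed. No clock gene had them all below, as 1.48% of all genes did. Since the group was chosen by this same contrast, nothing is read from these counts. DESeq2 and limma-voom also called 0 of the 10 genes, and 0 of the 9 genes other than Npas2 had an unadjusted p under 0.05 with either, beside 5.1% and 5.72% of all genes in those fits. Leaving Npas2 out, 6 of 9 genes had a log2 fold change above 0, with a median of 0.023, beside 49.2% and a median of -0.0022 over all tested genes. In 9 of the 10 genes, the CV of the WT libraries exceeded that of the ErbB4-/- libraries, as it did in 72.1% of all tested genes. The exception was Npas2. Without WT replicate 1 it was 7 of 10 genes, beside 52.2%.

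**Figure D4:**
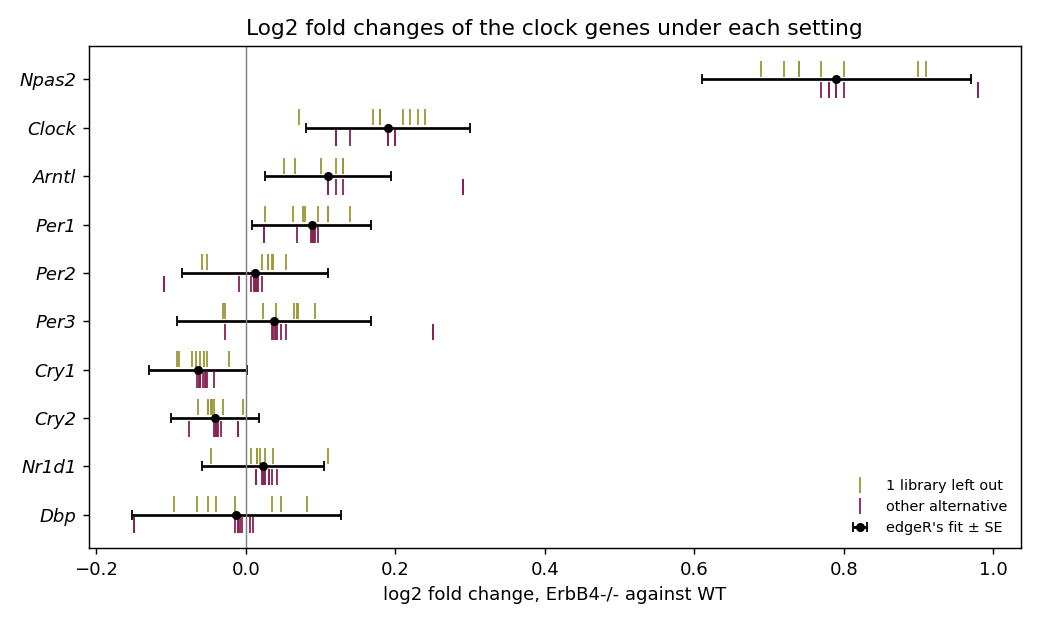
Log2 fold change of each clock gene, ErbB4-/- against WT (horizontal axis), from edgeR's fit (black, ± SE), with 1 library left out (olive ticks) and with each other alternative (purple ticks). Npas2 stays between 0.69 and 0.98, while Per2, Per3, Nr1d1 and Dbp have ticks on both sides of 0.

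The clock has many further components, and a list of 40 symbols was examined, with paralogues, nuclear receptors, D-box factors, kinases, ubiquitin ligases and cofactors. These stand for 39 genes, since Ciart is also listed by its older symbol Gm129, which the files use. All 39 were tested, 0 passed the adjusted threshold with edgeR, and 22 had a log2 fold change above 0, beside 0.0272% and 49.2% of all tested genes. DESeq2, which called 23 of 18851 genes, and limma-voom, which called 4 of 14696, also called 0 of them. Their median log2 fold change was 0.023, with a range from -0.30 to 0.44. Before adjustment, 2 of 39 genes had a p under 0.05, Rorb and Timeless, a share near the 5.53% of all tested genes, so they are given as values only. Rorb, a nuclear receptor that binds ROR elements, had 20.3, 25.1, 20.7 and 21.5 CPM in WT and 28.7, 29.4, 31.4 and 19.1 CPM in ErbB4-/- libraries. In Rorb, 3 ErbB4-/- libraries were above all WT libraries and replicate 4 was below them (log2 fold change 0.31, SE 0.14, edgeR adjusted p = 0.81). Timeless, known mainly for its part in DNA replication in mammals, had 46.2, 45.2, 49 and 48.3 CPM in WT and 38.7, 40.6, 38.0 and 47.6 CPM in ErbB4-/- libraries. Timeless differed by -0.20 on the log2 scale (SE 0.077, edgeR adjusted p = 0.81), and ErbB4-/- replicate 4 lay among the WT values.

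Close relatives and regulators of the clock genes are part of this list, and none of those named next passed the test. Nr1d2, the paralogue of Nr1d1, had 15.6 ± 0.677 CPM in WT and 17.2 ± 1.08 CPM in ErbB4-/- libraries (SD, n = 4 each; log2 fold change 0.14, edgeR adjusted p = 0.81). Arntl2, the paralogue of Arntl, had 1.21 ± 0.251 and 0.977 ± 0.275 CPM, and its log2 fold change was -0.30 (SE 0.25). Tef and Hlf, the D-box factors related to Dbp, had 74.3 ± 4.48 and 6.76 ± 1.03 CPM in WT and 74.3 ± 1.25 and 7.44 ± 1.02 CPM in ErbB4-/- libraries. The kinases that mark PER proteins for decay, Csnk1d and Csnk1e, had 348 ± 6.15 and 457 ± 23.9 CPM in WT and 346 ± 2.48 and 447 ± 7.18 CPM in ErbB4-/- libraries.

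Npas2 belongs to the bHLH-PAS family, and 14 relatives were examined beside it. Of the 13 tested, 0 passed the adjusted threshold with edgeR, 1 had an unadjusted p under 0.05 and 9 had a log2 fold change above 0, with a median of 0.045. Over all tested genes these shares were 0.0272%, 5.53% and 49.2%. Ahr, the aryl hydrocarbon receptor, had 2.68, 3.24, 3.05 and 2.85 CPM in WT and 4.65, 2.90, 3.79 and 4.38 CPM in ErbB4-/- libraries. Its groups overlapped through ErbB4-/- replicate 2 (log2 fold change 0.41, SE 0.16, edgeR adjusted p = 0.81). Ncoa1, a coactivator of nuclear receptors, had 99.2, 129, 131 and 134 CPM in WT and 137, 140, 138 and 137 CPM in ErbB4-/- libraries. These lay apart with a log2 fold change of 0.16 (SE 0.084, edgeR adjusted p = 0.81), and WT replicate 1 was far below the rest. Npas1 and Npas3 had log2 fold changes of 0.20 (SE 0.19) and -0.06 (SE 0.063).

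Per1 and Per2 are also induced by neuronal activity and glucocorticoids, so 14 genes that answer to these signals were examined. Of the 12 tested, 0 passed the adjusted threshold with edgeR, 0 had an unadjusted p under 0.05, and 5 had a log2 fold change above 0, beside the same 0.0272%, 5.53% and 49.2% of all tested genes. Their median was -0.036. Fos and Egr1, which activity induces, had 1.17 ± 0.331 and 3.83 ± 0.599 CPM in WT and 1.18 ± 0.256 and 4.15 ± 0.76 CPM in ErbB4-/- libraries (SD, n = 4 each). Fkbp5 and Tsc22d3, targets of the glucocorticoid receptor, had 94.4 ± 6.32 and 40.9 ± 2.93 CPM in WT and 91.6 ± 0.57 and 41.5 ± 1.17 CPM in ErbB4-/- libraries. The summed level of the list was 257 to 280 CPM in WT and 260 to 267 CPM in ErbB4-/- libraries.

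The genes whose profile over the 8 libraries was most like that of Npas2 were found by the root-mean-square difference of standardized log2 CPM. They were Ank (0.187), Krt77 (0.239), Slc22a8 (0.242), Arhgef3 (0.248) and Fam163b (0.254). Ank had 55.7 ± 0.952 CPM in WT and 59.4 ± 1.45 CPM in ErbB4-/- libraries, so its pattern was alike but its difference small. Slc22a8, an organic anion transporter gene, had 3.01 ± 0.303 and 4.70 ± 0.90 CPM (SD, n = 4 each). Among the clock genes the nearest was Arntl, at 0.847, which ranked 1551 among the tested genes. Clock ranked 2853, and Cry2 was the farthest, at a rank of 10270.

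Facts of the whole libraries bear on these values. Total counts ran from 28205703 to 48871480. Erbb4 itself was not lower in the libraries labelled ErbB4-/-, at 18.3 ± 6.81 CPM in WT and 22.4 ± 1.92 CPM in ErbB4-/- libraries (log2 fold change 0.28, SE 0.23, edgeR adjusted p = 0.812). WT replicate 1 had 8.99 CPM of Erbb4 and the other WT libraries 19.2 to 25.3 CPM, against 20.7 to 24.6 CPM in ErbB4-/- libraries. Counts over the whole gene do not show which exons were read, and every direction given here is that of the labels. In WT replicate 1, the deviation from the other libraries went down with exonic length (rho -0.524 across 14392 genes, which are not independent, against 0.0331 to 0.202 in the other 7). Clock, with 8.83 kb of exon, was lowest in that library, and Per3, with 9.61 kb, was not. The 8 markers of dorsal cortex, among them Emx1 and Neurod6, summed to 3140 to 3490 CPM in WT and 2970 to 3390 CPM in ErbB4-/- libraries. Pax6, a gene of cortical progenitors, differed by -0.27 on the log2 scale (SE 0.081, edgeR adjusted p = 0.81). The list of ganglionic eminence markers summed to 462 to 629 CPM in WT and 454 to 639 CPM in ErbB4-/- libraries. Whether these reads came from eminence tissue or from other cells that express the genes was not tested. The 5 red blood cell genes summed to 31.7 to 56.1 CPM in WT and 20.7 to 34.8 CPM in ErbB4-/- libraries. Of these, Hba-a1 had 0 CPM in every library, which is not read as absence of its RNA, since the counting mode is not known. The embryonic globin genes Hbb-y and Hba-x differed most between genotypes within this list. Hbb-y had 34.6, 31.6, 26.3 and 13.9 CPM in WT and 3.69, 4.05, 6.74 and 18.3 CPM in ErbB4-/- libraries (log2 fold change -1.72, SE 0.45, edgeR adjusted p = 0.81). Hba-x differed by -1.23 (SE 0.31, edgeR adjusted p = 0.74), while Alas2, a gene of heme synthesis in red cells, differed by 0.21 (SE 0.13). ErbB4-/- replicate 4, the lowest of its group in Npas2, was the highest in Hbb-y, while WT replicate 4 was the lowest of its group in both. The summed markers of meninges (8.47 to 9.92 and 8.70 to 14.2 CPM), endothelium (94.7 to 102 and 95.6 to 103), microglia (30.6 to 36.9 and 32.5 to 37.5) and hypothalamus (25.6 to 34.5 and 25.3 to 34.4) overlapped between WT and ErbB4-/- libraries, and the 4 markers of cycling cells had log2 fold changes from -0.20 to -0.05. The part of these differences in the Npas2 values was not tested. In bulk tissue, fewer cells that express a gene and less RNA per cell cannot be told apart.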

How the data were processed

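Raw counts (whole reads per gene symbol, no normalization) were deposited by the authors for 8 libraries. The libraries were non-stranded and polyA-selected. HISAT was used for mapping of single-end reads (mm9), and HTSeq-count for counting. The annotation and counting mode are not given in the sources used here. The deposited DESeq2 table holds only the authors' own comparison (fold changes and p-values) and was not used.

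Genotypes were taken from the labels. The 10 genes and all gene lists were chosen with earlier results of these data known. The test was the quasi-likelihood test of edgeR 4.0.16 (R 4.3.3) with TMM factors. It covered 14696 genes that filterByExpr kept (count at least 10, total at least 15), with Benjamini-Hochberg adjustment and a threshold of 0.05. The design held genotype only. SE is the log2 fold change divided by the root of F. Log2 CPM had a prior count of 2. Gene positions and exon lengths came from the GENCODE annotation of mm9, and promoters from RefSeq. Depth was from 28205703 to 48871480 counts, and counting error is part of the model.

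Named were all 10 genes, the genes of the lists with an unadjusted p under 0.05 or groups apart, the 5 profiles nearest to Npas2, overlapping genes, and Erbb4 and Xist. Other list genes were named after their values were seen. Alternatives were DESeq2 1.42.0, limma-voom 3.58.1, other normalizations and filters, a replicate block, a sex class from Xist, removal of the length trend, and each library left out. Added after seeing the data was a fit of the libraries with low Xist only. The steps were tested on simulated data. Figures used matplotlib 3.10.9. Some list genes are not reported here.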

Additional observations from a re-analysis of the deposited data

Results flagged for a closer look

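In 25 genes the libraries of each genotype were examined for a value far from the other 3, and 5 of the 50 groups had one; chance gives about 1 in 20. For each, the gap to the nearest library is given as a share of the range of the 4 libraries, against a limit of 0.829. WT replicate 4 had 14.6 CPM of Arntl, below 17.1 to 17.3 CPM in the other WT libraries (0.935). ErbB4-/- replicate 2 had 19.6 CPM of Per2, above 16.3 to 16.7 CPM in the other ErbB4-/- libraries (0.864). ErbB4-/- replicate 4 had 108 CPM of Nr1d1, below 113 to 114 CPM (0.842). WT replicate 2 had 3.47 CPM of Slc22a8, above 2.82 to 2.89 CPM (0.883). WT replicate 1 had 99.2 CPM of Ncoa1, below 129 to 134 CPM (0.857).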

How the results depend on the processing

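Npas2 kept its direction in all 18 alternatives, from 0.69 to 0.98, a range given as a description. So did Clock, Arntl, Per1, Cry1 and Cry2, with log2 fold changes of 0.071 to 0.24, 0.051 to 0.29, 0.024 to 0.14, -0.092 to -0.023 and -0.076 to -0.0043. The direction turned in the other 4 genes. With the length trend removed, Per2 was -0.0095, Per3 -0.028 and Dbp 0.01. With the Xist class as a covariate, and in the libraries with low Xist only, Per2 was -0.11, Per3 0.25 and Dbp -0.15. Arntl had an unadjusted p under 0.05 in both of these fits, which rest on WT replicate 4, the library with low Arntl (14.6 CPM), beside 1.8% and 4.79% of all genes. Clock had one with the replicate block, beside 6.97%. With limma-voom, Dbp was 0.0057. With each library left out, Per2 ran from -0.059 to 0.054, Per3 from -0.031 to 0.093, Nr1d1 from -0.046 to 0.11 and Dbp from -0.096 to 0.082. The cause of these turns was not tested. The count of called genes, 4 over all tested genes, was 23 with DESeq2 and 1 with relative log expression factors, upper-quartile factors, the Xist class, or the libraries with low Xist only. With a library left out it was 13 without WT replicate 4, 6 without WT replicate 1, 2 without WT replicate 2 or ErbB4-/- replicate 4, and 1 without any of the other 4. The labels do not say whether the replicate numbers pair the libraries. The correlations of same-numbered deviations were low, at 0.0837, 0.135, 0.0476 and 0.0236. The same-numbered library was the best match in 2 cases, and in 3 when counted from the ErbB4-/- libraries, so a pairing was not settled. With a replicate block, 1 gene was called and Npas2 was at 0.77. Counting error was highest in Npas2 among the 10 genes, at a CV of 10.3% from 61 to 226 reads per library. Searching only the 200 bases before the start, the motif shares were 5.26%, 2.97%, 1.25% and 11.4% of promoters. Among the clock genes, the ROR core then fell from 3 to 2 genes, since the Arntl match lies 31 bases after the start. The Per3 D-box at 205 bases before the start also fell outside, but Per3 still had its other copy. The other motifs were found in as many clock genes as before.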
